A study of Homo sapiens with 4 samples.

Results

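Hypoxia-responsive genes that act outside glycolysis were described in LP-1, an established human multiple myeloma line with the labelled cell type B lymphoblast, after knockdown of HRP2, the chromatin reader encoded by HDGFL2. The genes were AK4, BNIP3, P4HA1, DDIT4, ADM and NDUFA4L2, 6 of the 684 genes in the authors' deposited gene table. They were chosen by symbol with their fold changes in view, so the fold changes and Q values below are descriptions and carry no test. The design held 2 groups, 2 libraries of HRP2 knockdown cells and 2 libraries of non-target control cells. Cells of both groups received a lentiviral guide RNA construct, and both came from the line whose t(4;14) translocation gives the study its subject. The labels do not say whether the guide edited or repressed HDGFL2, whether the cells were a clone or a pool, or whether replicate libraries stem from different cultures, so the Q values may reflect technical spread only. For genes and for transcripts the authors deposited a log2 fold change (knockdown over control) with a Q value, a p-value adjusted for multiple testing. The deposited tables hold no value per library, so no fold change has an SD, the overlap of the groups cannot be stated and the sequencing depth is unknown.

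Cells sense falling oxygen through prolyl hydroxylases of the EGLN family, which mark the HIF alpha subunits for destruction by the VHL ubiquitin ligase. When oxygen is short the alpha subunits persist, pair with ARNT and bind hypoxia response elements, whose core reads ACGTG or GCGTG. The induced genes change how a cell uses oxygen and fuel, and those described here are counted among the known HIF targets. AK4 is a mitochondrial adenylate kinase, BNIP3 a receptor for the removal of mitochondria by autophagy, and P4HA1 the catalytic subunit of a collagen prolyl hydroxylase. DDIT4 encodes REDD1, an inhibitor of mTORC1. ADM encodes the secreted peptide adrenomedullin. NDUFA4L2 is a mitochondrial protein related to NDUFA4 that lowers respiration in hypoxic cells.

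The sequences before the transcription starts are shown because the genes are known as targets of one factor. All 6 genes were matched by gene ID to promoter windows of RefSeq on GRCh38.p14, which lists NDUFA4L2 as COXFA4L2, and the authors' processing used another build, hg19. Each stretch below is the 250 bases before a start, 5′ to 3′ on the strand of the gene, and capitals mark every ACGTG or GCGTG, read on either strand. AK4 has 4 annotated starts and NDUFA4L2 has 2, of which the most upstream is shown.
AK4 chr1:65147302-65147551 (+): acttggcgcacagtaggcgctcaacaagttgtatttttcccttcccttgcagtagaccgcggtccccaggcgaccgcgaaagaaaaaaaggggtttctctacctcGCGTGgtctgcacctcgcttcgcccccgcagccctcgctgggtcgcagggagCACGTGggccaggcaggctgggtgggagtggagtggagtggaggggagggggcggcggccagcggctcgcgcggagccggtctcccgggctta
BNIP3 chr10:131981924-131982173 (-): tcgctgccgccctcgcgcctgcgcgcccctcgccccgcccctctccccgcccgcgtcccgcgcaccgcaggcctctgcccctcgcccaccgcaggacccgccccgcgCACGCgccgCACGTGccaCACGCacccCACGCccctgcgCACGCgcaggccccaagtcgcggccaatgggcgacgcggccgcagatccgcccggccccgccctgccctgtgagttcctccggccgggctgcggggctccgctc
P4HA1 chr10:73096867-73097116 (-): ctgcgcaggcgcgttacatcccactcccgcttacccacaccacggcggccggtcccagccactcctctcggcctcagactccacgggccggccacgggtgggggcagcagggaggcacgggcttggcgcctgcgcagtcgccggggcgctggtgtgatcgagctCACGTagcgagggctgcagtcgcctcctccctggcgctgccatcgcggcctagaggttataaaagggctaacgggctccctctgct
DDIT4 chr10:72273674-72273923 (+): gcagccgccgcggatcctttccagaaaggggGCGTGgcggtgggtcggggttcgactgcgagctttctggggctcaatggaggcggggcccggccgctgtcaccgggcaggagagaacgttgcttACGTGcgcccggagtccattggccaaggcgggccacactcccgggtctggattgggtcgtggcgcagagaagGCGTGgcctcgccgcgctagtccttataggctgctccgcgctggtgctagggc
ADM chr11:10304823-10305072 (+): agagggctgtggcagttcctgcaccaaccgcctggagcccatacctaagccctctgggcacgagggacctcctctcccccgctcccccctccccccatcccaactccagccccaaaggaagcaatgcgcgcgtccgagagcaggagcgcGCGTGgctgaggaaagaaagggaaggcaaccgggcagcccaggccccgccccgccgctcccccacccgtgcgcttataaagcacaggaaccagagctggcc
NDUFA4L2 chr12:57240763-57241012 (-): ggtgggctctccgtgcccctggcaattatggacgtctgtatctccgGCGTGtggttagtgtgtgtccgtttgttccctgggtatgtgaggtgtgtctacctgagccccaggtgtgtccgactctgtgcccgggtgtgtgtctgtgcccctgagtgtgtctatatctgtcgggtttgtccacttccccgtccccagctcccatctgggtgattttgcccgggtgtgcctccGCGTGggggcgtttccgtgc

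Capitals appeared in every one of these stretches, but the 2 forms of the core were not shared alike. ACGTG was found in 4 of the 6 genes, AK4, BNIP3, P4HA1 and DDIT4, when the window of 300 bases (250 before and 50 after each start) was searched on both strands. ADM and NDUFA4L2 held GCGTG alone. BNIP3, the mitophagy receptor, had the densest set, with 2 matches to ACGTG and 4 to GCGTG, the first at 143 bases and the last at 104 bases before the start. Its pair of ACGTG matches is one palindromic CACGTG read on both strands. AK4 had the same palindrome at its first start, and all 4 of its windows held at least 1 match. In P4HA1 a single ACGTG lay 86 bases before the start, on the opposite strand. DDIT4 had ACGTG 125 bases before its start and 3 matches to GCGTG, 1 of them in the bases after the start that are not printed, and ADM had 1 GCGTG, 101 bases before its start.

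**Figure D1:**
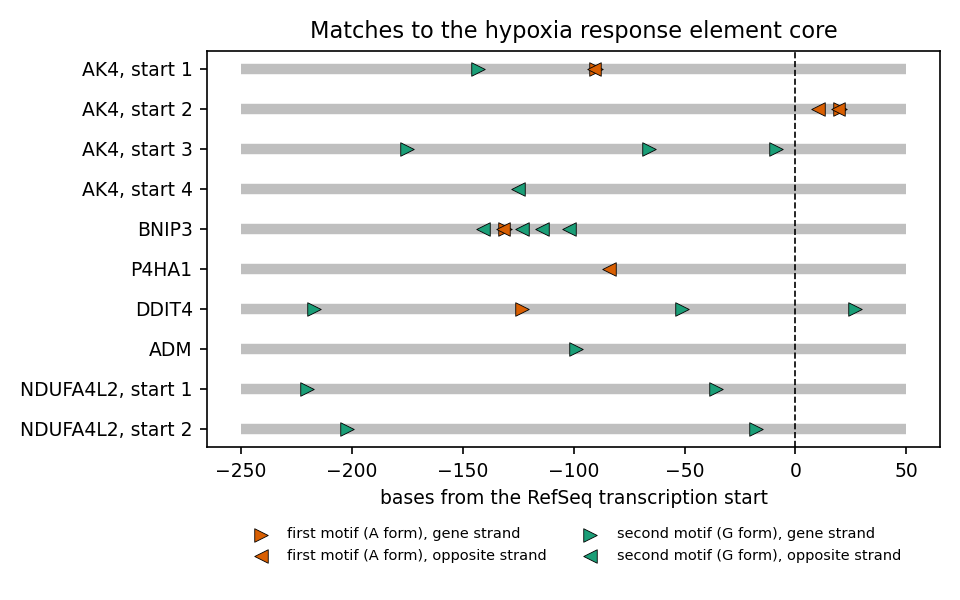
Matches to the 2 forms of the hypoxia response element core in each promoter window, plotted by distance in bases from the RefSeq transcription start (grey bars are the windows, triangles the matches, pointing right on the strand of the gene and left on the opposite strand). The A form (ACGTG) is seen in AK4, BNIP3, P4HA1 and DDIT4, while ADM and the 2 windows of NDUFA4L2 hold the G form (GCGTG) alone.

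Such short words are common. ACGTG was present in 21.4% of all 35116 promoter windows of this length and either form in 48.4%. Promoter windows of the 6 genes held between 58.7% and 80.7% G and C, lowest in NDUFA4L2 at 58.7% and 60%. The median over all windows was 58.7%. Among the 17034 windows in the range of the 6 genes the shares were 25.5% for ACGTG and 64.5% for either form. Counted by gene, with a gene taken as holding the word when any of its windows did, either form was found in 75.9% of the 295 genes called higher that had a window and in 73.0% of the 256 called lower. For ACGTG the shares were 36.6% of the genes called higher and 32.8% of those called lower. Over all genes with a window, ACGTG was found in 24.9% and either form in 52.4%. Among genes with a window in the GC range of the 6, the shares were 28.5% and 68.1%. Genes with several windows, such as AK4, have more places for a match. A match describes the letters and is not evidence of binding, and binding of HIF was not measured here.

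AK4, BNIP3, P4HA1, DDIT4 and ADM were higher in HRP2 knockdown than in control cells, and NDUFA4L2 was lower. In bulk libraries, fewer cells of a type and less RNA per cell cannot be told apart. Of all 684 genes that the authors' deposited table holds, 52.8% were higher and 47.2% lower, and this contrast is the one that chose the genes, so nothing is read from the count of 5 higher and 1 lower. The median absolute log2 fold change was 1.31 for the 6 genes and 0.70 for all called genes in the authors' deposited table. At least 1 on that scale was reached by 4 of the 6 genes, against 21.8% of all called genes. The genes were chosen with these sizes in view, so nothing is read from either difference in size.

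AK4, which transfers phosphate between nucleotides in the mitochondrial matrix, had the largest rise of the 6. Its level in knockdown cells was 4.14 times that in control cells (log2 fold change 2.05, Q = 0.000187, authors' deposited table), the 7th highest value in the table. BNIP3 followed at 2.88 times (log2 fold change 1.52, Q = 5.62e-05, authors' deposited table), 11th from the top. These 2 mitochondrial genes share transcript sequence with pseudogenes. Of the 31-base words of the longest BNIP3 transcript in GENCODE 29, 17.2% also occurred in BNIP3P1 and 20.0% in any other gene, and for AK4 8.3% occurred in AK4P1. Reads from shared words could be split between copies during counting, so the size of the 2 changes is uncertain. The shares do not measure that uncertainty, and their effect on the 2 values was not tested. The other 4 genes shared no such word with another gene.

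P4HA1, whose enzyme hydroxylates prolines so that collagen chains can form a stable triple helix, had the smallest Q value of the 6. In knockdown cells it reached 2.15 times its level in controls (log2 fold change 1.10, Q = 6.2e-10, authors' deposited table), 42nd by fold change but 8th by Q value among 684 genes. DDIT4, the mTORC1 inhibitor, stood at 1.52 times (log2 fold change 0.60, Q = 0.000494, authors' deposited table). ADM, the gene of a vasodilator peptide, had the smallest change, with a knockdown level 1.43 times that in control cells (log2 fold change 0.51, Q = 0.00593, authors' deposited table). DDIT4 and ADM lay below the median of the genes called higher in the authors' deposited table, a log2 fold change of 0.66, and the other 3 risers lay above it.

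NDUFA4L2 went the other way. Its level in knockdown cells was 0.227 times that in control cells (log2 fold change -2.14, Q = 0.0128, authors' deposited table), the 11th lowest value in the table. In absolute size it exceeded every one of the 5 risers, yet its Q value was the largest of the 6, 296th among 684 genes. It was the only one of the 6 whose Q value was above 0.01, a limit under which 37.3% of all called genes fell.

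**Figure D2:**
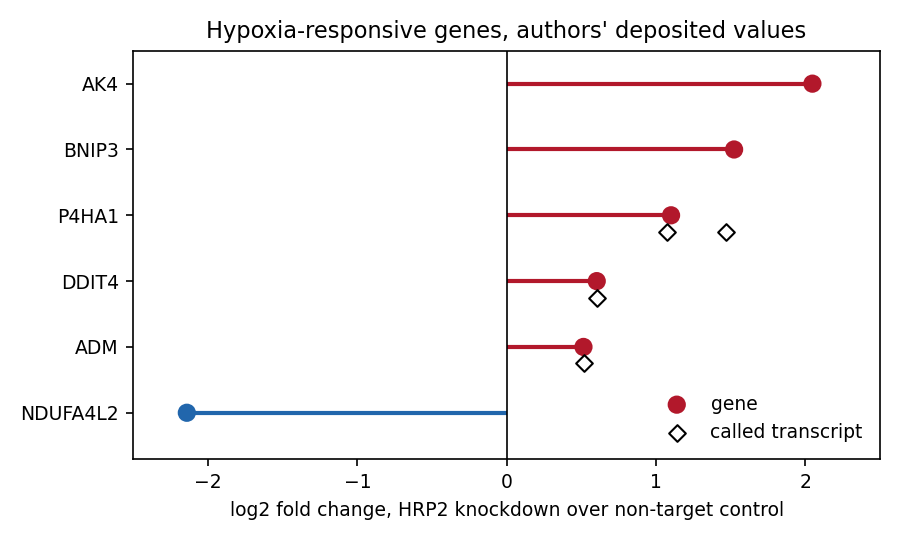
Log2 fold change of HRP2 knockdown over non-target control for the 6 genes (filled circles, red higher and blue lower in knockdown) and for their called transcripts (open diamonds), as deposited by the authors, with no error available. AK4 lies at 2.05 and NDUFA4L2 at -2.14, with the remaining 4 genes between 0.51 and 1.52.

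**Figure D3:**
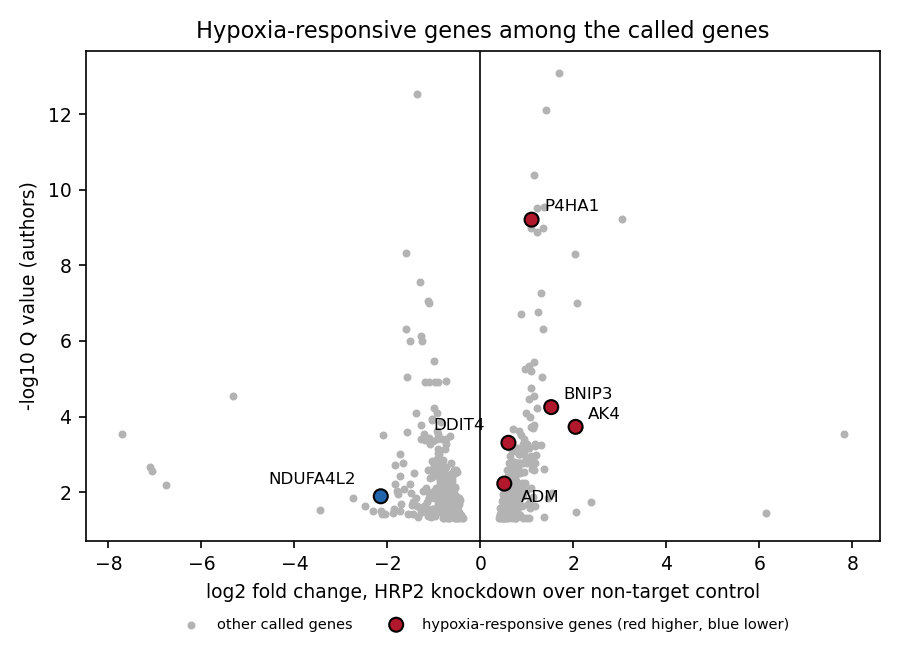
Authors' log2 fold change (horizontal) against -log10 of the authors' Q value (vertical) for the 684 called genes (grey points), with the 6 hypoxia-responsive genes in colour. P4HA1 stands highest of the 6 (Q = 6.2e-10) and NDUFA4L2 lowest (Q = 0.0128) in spite of its log2 fold change of -2.14.

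By size of change alone, over this single comparison, the called genes nearest to AK4 were PFKFB4, a regulator of glycolysis, with 2.04 and SLC25A21, a mitochondrial carrier, with 2.07 (log2 fold changes, authors' deposited table). Nearest to NDUFA4L2 were CLIP2, a microtubule-binding protein gene, at -2.15 and TRIB1, a pseudokinase gene, at -2.12 in the authors' deposited table. All 4 of these had Q values between 5.1e-09 and 0.0389.

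Called transcripts were found for 3 of the 6 genes in the authors' deposited transcript table, which held 1040 called transcripts, 51.0% of them higher and 49.0% lower in knockdown. P4HA1 had 2 called transcripts, NM_001017962.2 with a log2 fold change of 1.47 (Q = 0.00711) and NM_000917.3 with 1.07 (Q = 0.0125) in the authors' deposited transcript table. Both were higher in knockdown cells, and no test of the difference between them was possible without values per library. DDIT4 had 1, at 0.61 (Q = 0.000262), and ADM had 1, at 0.52 (Q = 0.0163), each within 0.005 of the value for its gene in the authors' deposited tables. None of the 4 transcripts reached an absolute log2 fold change of 6, a size that 79.1% of the called transcripts in that table had. AK4, BNIP3 and NDUFA4L2, the genes with the 3 largest changes, had no called transcript, so their values rest on the gene table alone.

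A longer list of 48 hypoxia-responsive genes outside glycolysis, the 6 included, was then read in the same table. This list and the glycolytic list below were chosen with earlier results of these data known. The 6 genes were chosen with these values in view. Nothing is therefore read from the counts and medians that follow. Of the 48, 12 were called in the authors' deposited table, 11 higher and 1 lower. The median of these 12 log2 fold changes was 1.12, against 0.47 over all called genes of the authors' deposited table. For scale, 682 of the 24237 mRNA genes that the authors list were called (2.81%), but how many of those genes were tested is not known. Outside the 6 genes, 6 of 42 were called and all 6 were higher. IGFBP3, which binds insulin-like growth factors, had a log2 fold change of 1.36 (Q = 2.91e-10) and BHLHE40, a transcriptional repressor of the circadian clock, 1.30 (Q = 5.27e-08) in the authors' deposited table. FAM162A, a mitochondrial protein gene, lay at 1.17 and HILPDA, a lipid droplet protein that restrains lipolysis, at 1.14 in the authors' deposited table. ERO1A, the oxidase that supplies disulfide bonds in the endoplasmic reticulum, was at 0.58, and KDM3A, an H3K9 demethylase gene, at 0.55 in the authors' deposited table. NDUFA4L2 was the 1 lower gene among the 12. Glycolytic enzymes and their PFKFB regulators, set beside them, had 6 of 27 called, all 6 of them higher, and the median of their log2 fold changes was 0.73 in the authors' deposited table.

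**Figure D4:**
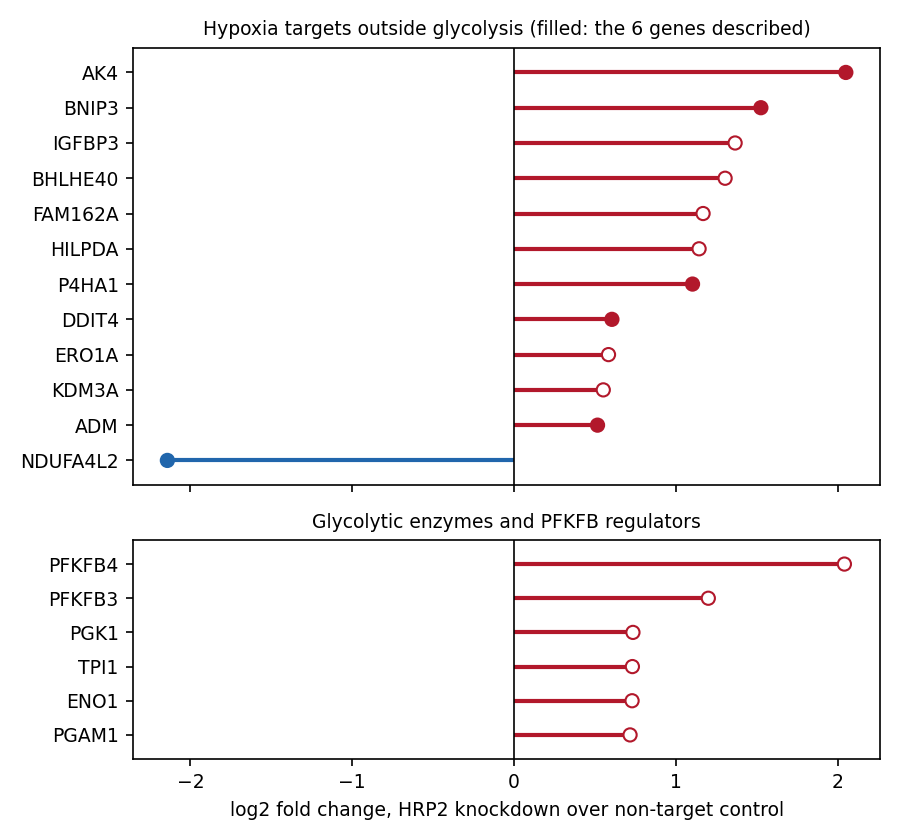
Authors' log2 fold changes of HRP2 knockdown over control for the called genes of the hypoxia list (upper panel, the 6 described genes filled) and of the glycolysis list (lower panel). All called genes of both lists lie between 0.51 and 2.05, except NDUFA4L2 at -2.14.

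None of 17 genes of the oxygen sensing system (the HIF subunits, their hydroxylases, the VHL complex and the coactivators) was in the authors' deposited gene table. With 2.81% of all listed mRNA genes called, a count of 0 in 17 is near the background. Among the called transcripts 3 came from these genes and all 3 were higher, 1 each of ARNT at 9.54, HIF1AN, the asparaginyl hydroxylase gene, at 8.98, and CREBBP, a coactivator gene, at 24.30 (log2 fold changes, authors' deposited transcript table). These are predicted models with changes above 6, whose genes were not called. Among all called transcripts 51% were higher, and 79.1% had a change of 6 or more in either direction. Nothing is therefore read from the 3 values or from their shared direction. Genes that were not called have no value here, so the oxygen sensing genes are not shown to be unchanged.

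Partners of the 6 genes were called in few cases, as were mRNA genes in general (2.81% of those listed). Of 16 genes for collagen hydroxylation and folding, P4HB was the 1 called beside P4HA1. It encodes protein disulfide isomerase, the beta subunit of the same prolyl hydroxylase, and its log2 fold change was -0.56 (Q = 0.0026, authors' deposited table), so the 2 subunit genes of one enzyme were called in opposite directions. The transcript NM_000918.3 of P4HB was at -0.55 and XM_011528297.2 of COLGALT1, a collagen galactosyltransferase gene not called as a gene, at -4.50 (Q = 4.34e-05) in the authors' deposited transcript table. Of 27 regulators and subunits around mTORC1, MLST8, a subunit shared by both mTOR complexes, was called beside DDIT4, at -0.52 (Q = 0.0144, authors' deposited table). TSC1, which acts below DDIT4, was not called as a gene but had 1 transcript with a log2 fold change of 22.63 and another with -9.13 in the authors' deposited transcript table. RRAGD and NPRL2, also in the mTORC1 list, had 1 called transcript each, RRAGD with 2.60 and NPRL2 with -9.03 (log2 fold changes, authors' deposited transcript table). Absolute log2 fold changes of at least 6, as in TSC1 and NPRL2, were held by 79.1% of all called transcripts, so nothing is read from them.

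The remaining families gave the described gene alone, which was chosen because it was called, so nothing is read from these counts beside the 2.81% called among all listed mRNA genes. AK4 was the 1 called of 9 adenylate kinases, BNIP3 the 1 called of 19 mitophagy receptors and adaptors, and ADM the 1 called of 11 genes for adrenomedullin, its relatives and receptors. NDUFA4L2 was the 1 called of 19 genes in a list of its own family and of complex IV, the respiratory complex of which NDUFA4 is a subunit. The BNIP3 paralogue BNIP3L and the relative NDUFA4 were thus outside the authors' deposited table, as were P4HA2 and VEGFA.

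Among called genes, direction differed with position in the genome and with base composition, and the part of either in the values of the 6 genes was not tested. BNIP3, P4HA1 and DDIT4 lie on chromosome 10, AK4 on chromosome 1, ADM on chromosome 11 and NDUFA4L2 on chromosome 12. Of the other 25 called genes of chromosome 10, 84.0% were higher in the authors' deposited table, against 51.4% of the 656 called genes elsewhere. DDIT4 and P4HA1 are each other's nearest called gene there, with 5 protein-coding genes between them, none of them called. Beyond 3 uncalled protein-coding genes, the nearest called gene to BNIP3 was GLRX3, a glutaredoxin gene, with a log2 fold change of 0.53 (authors' deposited table). Without chromosome 10 the risers among the 6 were AK4 and ADM.

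Median transcript GC content was lowest for P4HA1 (40.8%) and AK4 (42.3%), then 51.4% for BNIP3, 58.1% for DDIT4, 59.4% for ADM and 62.9% for NDUFA4L2. Ordered from the highest to the lowest fold change, the genes rose in GC content at every step but that from BNIP3 to P4HA1. Called genes in the lowest GC quartile, where AK4 and P4HA1 fall, were higher in 75.7% of 169 cases in the authors' deposited table. In the third quartile, which holds BNIP3 and DDIT4, 47.3% were higher. DDIT4, at 58.1%, lies close to the upper limit of that quartile, 58.4%. In the highest quartile, which holds ADM and NDUFA4L2, 14.8% were higher. ADM was thus 1 of 25 higher genes in its quartile, and NDUFA4L2 was among the lower genes there. The part of GC content in these directions was not tested.

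**Figure D5:**
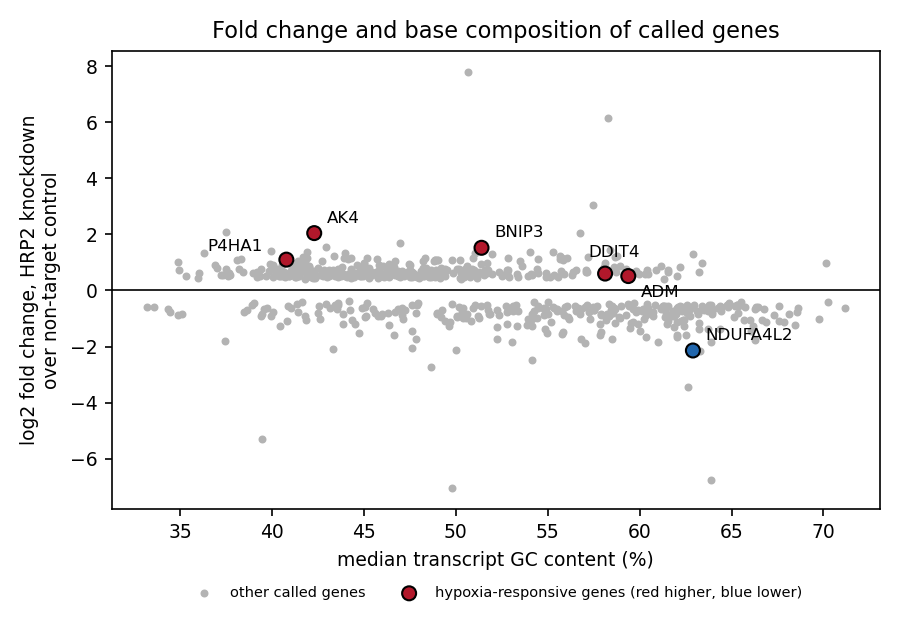
Authors' log2 fold change of HRP2 knockdown over control against median transcript GC content (GENCODE 29) for called genes, with the 6 hypoxia-responsive genes in colour. P4HA1 and AK4 lie at the low end of GC content (40.8% and 42.3%) and NDUFA4L2 at 62.9%, where lower genes are most frequent.

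The libraries were checked as far as the tables allow. HDGFL2, the target, was at 0.388 times its control level (log2 fold change -1.37, Q = 2.99e-13, authors' deposited table). Of 11 plasma cell markers 3 were called (27.3%), against 2.81% of all listed mRNA genes. They were IRF4 at -0.63, TNFRSF17 at -0.48 and SDC1 at -0.45 in the authors' deposited table. All 3 were lower in knockdown, as were 47.2% of all called genes. The marker lists were chosen with earlier results of these data known, and how many listed genes were tested is not known. IRF4 had called transcripts in both directions, XM_006715090.2 at 1.93 (Q = 0.000426) and NM_002460.3 at -1.04 (Q = 0.0108), in the authors' deposited transcript table. Of 41 markers of other cell types (T cells, NK cells, myeloid cells, the erythroid and platelet lineages, stroma and endothelium) 1 gene was called, NCAM1 at -0.83 in the authors' deposited table, and NCAM1 is also expressed by many myelomas. That is close to the 2.81% called among all listed mRNA genes. PECAM1, an endothelial marker, was not called as a gene but had 1 transcript, a predicted model, at 8.64 (Q = 0.0261, authors' deposited transcript table). The other markers have no value here, and the part of any change in cell makeup was not tested.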

How the data were processed

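Per the labels, RNA of LP-1 cells (2 HRP2 knockdown samples, 2 non-target controls) was extracted with Trizol and made into libraries with BGI protocols. RSEM, Bowtie2, BWA and hg19 are named in the submitters' processing notes. Roles, versions, annotation, normalization and test were not given in the sources used here. The log2 fold changes (knockdown over control) and the Q values were used as deposited by the authors, per the file headers. Every Q value was under 0.05 (largest 0.0495 for genes, 0.0497 for transcripts), so other genes have no value. A further deposited list of gene names and RNA types holds no numbers. The design allowed for tests on values per library, and none was run, since the deposited tables hold no such values. Depth is unknown.

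Genes were matched by gene ID to RefSeq (GRCh38.p14, 681 of 684) for chromosome, gene order and promoter windows. GC content was the median over protein-coding transcripts in GENCODE 29 (676 of 684 genes), and shared sequence was counted in 31-base words. Motif search was tested on simulated data. Python 3.11.15, pandas 2.3.3 and matplotlib 3.10.9 were used. The genes and the 14 lists were chosen with earlier results of these data known. Genes named were the 6, HDGFL2, up to 6 called genes of each list by Q value, the 2 nearest in fold change to AK4 and to NDUFA4L2, and the nearest called neighbours on chromosome 10. Transcripts, P4HA2, VEGFA, BNIP3L and NDUFA4 were named after their values or absence were seen. Alternatives were a stricter Q value (under 0.01), a log2 fold change of 1 or more in absolute size, omission of chromosome 10 or of genes with at least 50% shared words, the transcript table, omission of transcripts at 6 or more, and 2 changes to the motif search.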

Additional observations from a re-analysis of the deposited data

How the results depend on the processing

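Of 32 recounts under the alternatives, 20 stayed within 1.5 times the reported count and 12 did not. The 20 include recounts that could not move, so their number is no measure of stability. Among these are all recounts of the lower transcripts of the 6 genes, which numbered 0 from the start. The 5 genes higher in knockdown became 3 when a log2 fold change of 1 or more in absolute size was required, 2 without chromosome 10 and 3 in the transcript table. The 1 lower gene, NDUFA4L2, became 0 at a Q value under 0.01 and 0 in the transcript table. Of the 4 called transcripts, all higher, 2 remained at a Q value under 0.01, 2 with that size limit and 1 without chromosome 10. In the list of 48, the 11 higher genes became 7 with the size limit. The transcript table also gave 7 higher genes of that list, 5 of them among the 11 and 2, KDM4C and NDRG1, called there alone, and the 1 lower gene became 0 at a Q value under 0.01 and 0 in the transcript table. The Q value, size and chromosome limits keep fewer genes by construction. The cause of the differences in the transcript table was not tested. No gene of the 48 was called in opposite directions in the gene and transcript tables. Leaving out genes with at least 50% shared words removed none. That recount could not move, since the largest share among the called genes of the 48 was 23.8%, in HILPDA. BNIP3, at 20.0%, was kept, so the effect of shared sequence on the counts was not tested. Either core form was found in 6 genes with only the bases before the start, and ACGTG alone in 4. No paired analysis was possible because the deposited tables hold one value per comparison and none per library, so no replicate could be left out either.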

Other observations

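A few more called genes near this biology were named after their values were seen. They are not a complete set of such genes, and nothing is read from their directions. Called genes outside the hypoxia list were not sorted by response to hypoxia. NDUFA4L2 is thus not shown to be the only hypoxia-responsive gene that was lower in knockdown. GBE1, the glycogen branching enzyme gene, had a log2 fold change of 1.03 (Q = 0.0208) and FUT11, a fucosyltransferase gene on chromosome 10, 1.14 (Q = 0.0132) in the authors' deposited table. BCL2 and BCL2L1, which encode survival proteins that BNIP3 protein can bind, were both lower in knockdown. They were at -0.81 (Q = 0.0102) and -0.74 (Q = 0.0051) in the authors' deposited table. BBC3, a death-promoting gene of the same family, was lower too, at -1.36 (Q = 0.0235, authors' deposited table). In the hypoxia list KDM4C, a demethylase gene, and NDRG1, a stress-responsive gene, were not called as genes but had 1 called transcript each, KDM4C with 6.10 and NDRG1 with 2.46 (log2 fold changes, authors' deposited transcript table). LDHA and PKM, the lactate dehydrogenase A and pyruvate kinase genes of the glycolysis list, were likewise called in the transcript table alone, LDHA with 1 transcript at 1.07 and another at 9.10 and PKM with 1 at 8.76 (log2 fold changes, authors' deposited transcript table). At least 6 in absolute size was reached by 79.1% of all called transcripts. Among the other 6 called hypoxia genes 5 had a promoter window, and 3 of those 5 held ACGTG. Of all genes with a window 24.9% held it, and nothing is read from so small a count.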
